A study of Mus with 9 samples.

Results

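This report describes how the hippocampal transcriptome of TG-treated SAMP8 mice differed from that of vehicle-treated SAMP8 mice. TG stands for trigonelline, a small plant molecule built on nicotinic acid. Of the 9 arrays of the study, 6 belong to this comparison, 3 of TG-treated SAMP8 and 3 of SAMP8, and all 22206 of the 22206 probe sets on the array were kept. Every value below is the TG-treated SAMP8 average minus the SAMP8 average on the log2 scale, so that 1 means 2-fold higher with TG and 0.585 means 1.5-fold. Both groups were male senescence-accelerated mouse prone 8 (SAMP8) animals, given as 16 weeks old and housed singly. By the paper's account acclimatization, treatment and testing came after this age, so the mice were older when the hippocampus was taken. The treated mice were given oral TG, 5 mg/kg daily over 30 days and then through 8 days of Morris water maze testing, whereas the SAMP8 group received vehicle, which is saline in the sample records and water in the paper. The 3 vehicle-treated arrays of the normally aging strain SAMR1 (senescence-accelerated mouse resistant 1) appear here as side values. The series text mentions duplicate RNA samples, while 3 arrays per group are listed in the records and stated in the paper. The records also carry a text on a macrophage line, which was disregarded.

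The hippocampus holds the excitatory pyramidal neurons of fields CA1, CA2 and CA3, the granule neurons of the dentate gyrus, inhibitory interneurons, and the glia and vessels that serve them, and it is needed for the spatial memory that the water maze tests. SAMP8 is an inbred strain in which learning declines early. Nicotinic acid, of which TG is a methylated form, is a vitamin and a precursor of NAD, the cofactor that feeds electrons to the respiratory chain. RNA from whole hippocampus mixes all these cells, so fewer cells of a type and less RNA per cell cannot be told apart.

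The deposited tables hold 1 average per group and no value per array. No spread between mice could therefore be computed, no test was made, and "higher" and "lower" below describe group averages. The authors' averages are log2 signals with 2 decimals, so rounding alone moves a difference by up to 0.01. They ran from 2.46 to 19.93 in TG-treated SAMP8 and from 2.39 to 19.93 in SAMP8, with medians of 6.07 and 6.04. In the 1424 probe sets of olfactory, vomeronasal and bitter taste receptors, genes of the nose and tongue, the 95th percentile was 5.56 with TG and 5.5 in SAMP8, and averages at or below it are called low here.

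With TG, 994 probe sets (4.48%) were at least 1.5-fold higher and 830 (3.74%) at least 1.5-fold lower. These 2 percentages are the background against which each group of genes is read. At least 2-fold differences were found in 105 probe sets (0.473%) upward and 76 (0.342%) downward. The median difference was 0.01, with quartiles at -0.19 and 0.20 and extremes of -2.69 and 1.92. The higher set lay on shorter genes, with a median genomic length of 7762 base pairs against 40131 in the lower set and 17654 over all placed probe sets. The median level of the higher set, 6.03, was close to the 6.06 of all probe sets, and the lower set was brighter at 7.89. The plot of difference against signal shows that the deepest differences were downward.

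**Figure D1:**
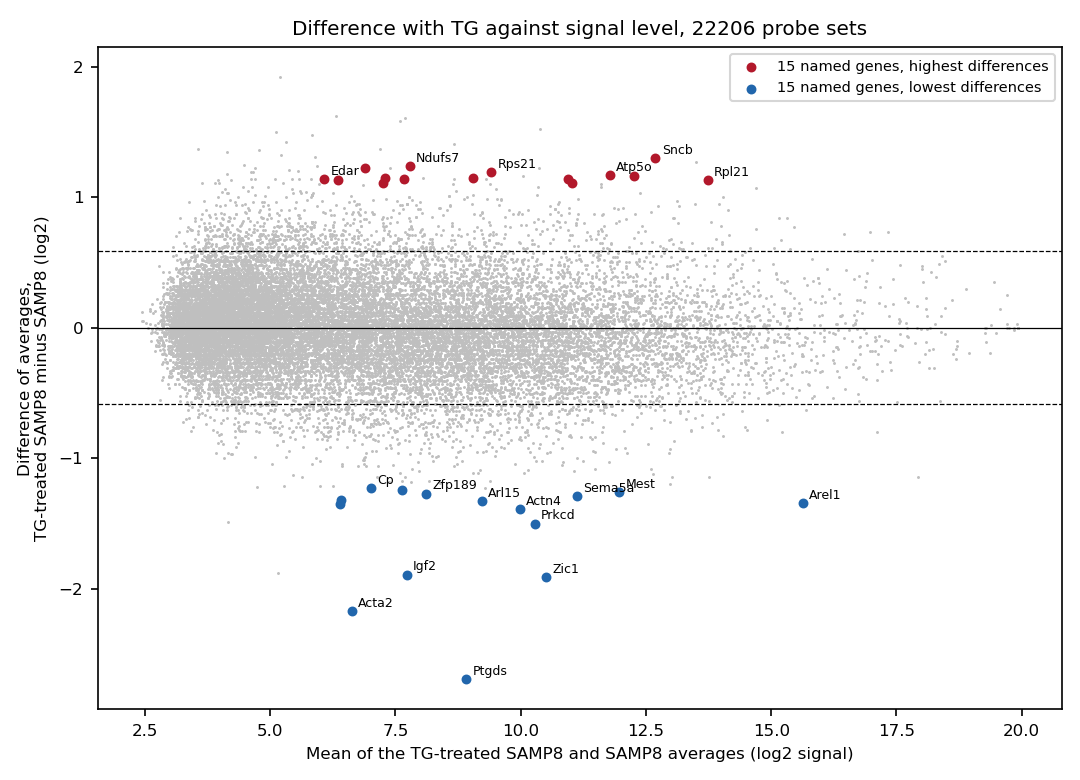
Each grey point is 1 of 22206 probe sets, placed by the mean of the TG-treated SAMP8 and SAMP8 averages (log2 signal) and by their difference (log2), with dashed lines at 1.5-fold. The 15 named genes with the highest differences lie between 1.11 and 1.30, and the 15 with the lowest between -2.69 and -1.23, with Ptgds and Acta2 farthest from 0.

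Among the 9811 probe sets with 1 established gene symbol and a signal at or above the median, Sncb had the highest difference. Sncb encodes beta-synuclein of presynaptic terminals and lies on chromosome 13 from 54758860 to 54766622 (GRCm38). Its average was 13.34 with TG, 12.04 in SAMP8 and 12.43 in SAMR1, a difference of 1.30 or 2.46-fold. Of the 15 genes with the highest differences, 4 encode parts of the respiratory chain or ATP synthase. These are Ndufs7, an iron-sulfur subunit of complex I, at 1.24, Atp5o of the ATP synthase stalk at 1.17, and Atp5e and Atp5l, both at 1.14. A further 2 encode cytosolic ribosomal proteins, Rps21 at 1.19 and Rpl21 at 1.13. Naca, which meets proteins as they leave the ribosome, stood at 1.16, and Pop5, a part of the enzyme that trims transfer RNA, at 1.15. Dbi, which carries acyl-CoA and also binds GABA-A receptors, stood at 1.15. Gpx4, the peroxidase that reduces lipid peroxides in membranes, had averages of 11.58 with TG and 10.47 in SAMP8, a difference of 1.11. Kcnab3, an auxiliary subunit of potassium channels, also stood at 1.11. The other genes of the 15 were Gal3st2, a sulfotransferase, at 1.22, the ectodysplasin receptor Edar at 1.14 and the defensin Defb33 at 1.13, with TG averages of 7.51, 6.65 and 6.91. The SAMP8 average lay above the SAMR1 average in 7 of these 15 genes and below it in 8.

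The lowest differences were deeper than the highest were high. Ptgds, the prostaglandin D2 synthase that the membranes around the brain secrete, averaged 7.57 with TG, 10.26 in SAMP8 and 9.39 in SAMR1, a difference of -2.69 or 6.45-fold lower. It lies on chromosome 2 from 25466709 to 25470110 (GRCm38). Acta2, the actin of vascular smooth muscle, averaged 5.54, 7.71 and 5.52 in the same order, so that its SAMP8 average stood apart from the other two. Igf2, an imprinted growth factor made by meninges and choroid plexus, averaged 6.78, 8.67 and 7.09. Zic1, a transcription factor of the thalamus and other regions near the hippocampus, was lower by 1.91 on the log2 scale (9.56 against 11.47), and Prkcd, a protein kinase C abundant in thalamic relay neurons, by 1.5 (9.53 against 11.03).

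The remaining genes of the 15 lowest have varied roles. Actn4, an alpha-actinin of the cytoskeleton, stood at -1.39, the galactosidase-like gene Glb1l at -1.35, the ubiquitin ligase Arel1 at -1.34 and the small GTPase Arl15 at -1.33. The polyamine transporter Slc18b1 stood at -1.32, the axon guidance gene Sema5a at -1.29, the zinc finger gene Zfp189 at -1.27 and the imprinted gene Mest at -1.26. Icosl, a ligand that stimulates T cells, stood at -1.24, and the copper oxidase Cp, ceruloplasmin, at -1.23. In 14 of the 15 genes the SAMP8 average also lay above that of SAMR1, the exception being Slc18b1. The same 3 SAMP8 arrays enter both differences, so the SAMR1 value is given as a level and supports nothing about TG.

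Genes of oxidative phosphorylation were higher with TG across nearly the whole list. Over the nuclear genes of the respiratory chain and ATP synthase together, 72 of 80 probe sets lay above 0, the median difference was 0.475, and 28 were at least 1.5-fold higher (35% against 4.48% of all probe sets) and 1 lower. Complex I, which takes electrons from NADH, had a median of 0.45 over 37 probe sets, with 10 higher and none lower. After Ndufs7 its highest members were Ndufab1, the acyl carrier protein, at 0.86, and Ndufv2, an iron-sulfur subunit, at 0.82, whereas Ndufv3 and Ndufa7 both stood at -0.03 with averages under 5.5. Complexes II to IV had a median of 0.47 over 25 probe sets, with 10 higher and none lower. Here the highest were Cox4i1 at 1.10 (12.16 against 11.06), and Cox7a2 and Cox7b, both at 0.91, all of cytochrome c oxidase. The lowest were Sdha at -0.03 and Sdhb at 0.04, subunits of complex II that also belong to the citric acid cycle. ATP synthase had a median of 0.505 over 18 probe sets, with 8 higher. Its catalytic subunit Atp5b averaged 15.85 with TG and 15.08 in SAMP8. The lower member was Atp5s, a coupling factor outside the core enzyme, at -0.61, and 1 of the 2 Atp5d probe sets stood at -0.13 and the other at 0.35. The plot of gene classes puts these lists beside all the others.

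**Figure D2:**
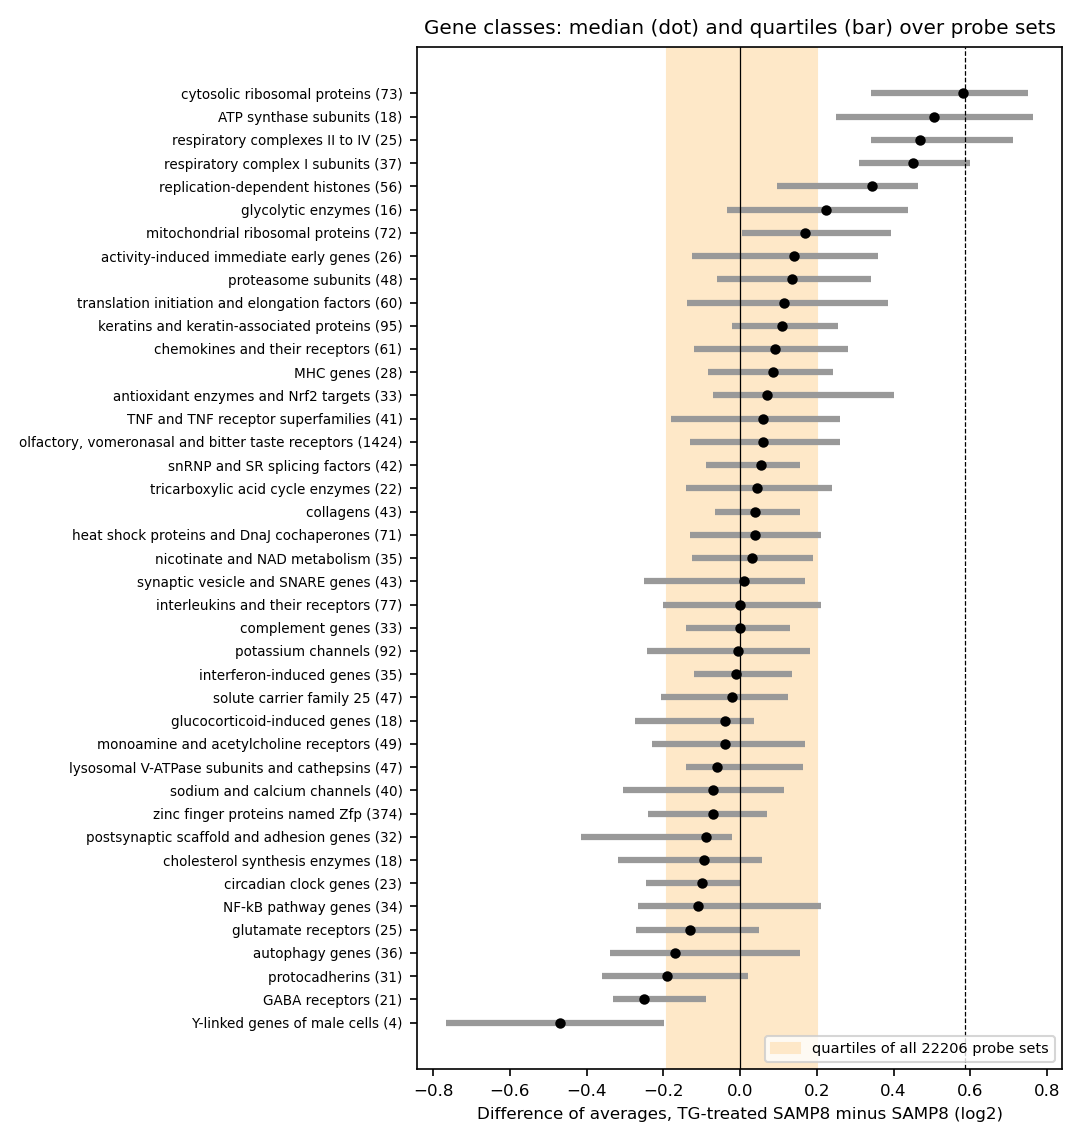
Median difference (dot, log2) and quartiles (bar) of 41 gene classes, TG-treated SAMP8 minus SAMP8, with the number of probe sets in brackets and the quartiles of all probe sets shaded. Cytosolic ribosomal proteins, ATP synthase and the respiratory complexes stand to the right of the shaded band, with medians between 0.45 and 0.58, and GABA receptors and the 4 Y-linked genes to its left. The medians of histones (0.345) and glycolytic enzymes (0.225) also lie to the right of the band.

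Cytosolic ribosomal proteins stood highest of the 41 classes. Their median was 0.58 over 73 probe sets, 70 were above 0, and 36 (49.3%) were at least 1.5-fold higher and none lower. After Rps21 and Rpl21 came Rpl35a at 1.10 (9.94 against 8.84). The members at the bottom were Rps27l, a p53-induced relative of a ribosomal protein, at -0.50, and Rpl36 and Rpl7l1, both at -0.02. Many ribosomal protein genes have near-identical processed copies elsewhere in the genome, so short probes can read more than 1 of them and single members are uncertain. The 72 probe sets of mitochondrial ribosomal proteins had a median of 0.17, with 6 higher and none lower, led by Mrpl20 at 0.99, Mrpl12 at 0.90 and Mrpl23 at 0.81. Of 60 probe sets for translation initiation and elongation factors, 10 were higher and none lower around a median of 0.115. They included Eif1b at 1.08, the elongation factor Eef1b2 at 0.97 and Eif3f at 0.96, and at the other end Eif1a at -0.50 and Eif2ak2, an interferon-induced kinase that stops translation, at -0.48.

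Replication-dependent histones, whose messages end in a stem-loop in place of a poly(A) tail, had a median of 0.345 over 56 probe sets, with 9 higher and 1 lower. Hist2h3c1 and Hist2h3c2 both averaged 9.07 with TG and 8.06 in SAMP8, and such near-identical copies cannot be told apart by their probes. Hist1h1c, a linker histone, was the lower member at -0.82, with a TG average of 3.56. The machines that split and splice gave smaller differences. Proteasome subunits had a median of 0.135 over 48 probe sets, with Psmb3 at 0.99 and Psma2 at 0.66 higher and the activator Psme4 lower at -0.82. None of the 42 probe sets of splicing factors passed 1.5-fold in either direction, and their median was 0.055. Of 71 heat shock and DnaJ probe sets, 3 were higher (4.23%) and 2 lower (2.82%) around a median of 0.04. The higher ones were the mitochondrial chaperones Hspa9 at 0.80 and Hspe1 at 0.79, and Dnajb1 at 0.64.

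**Figure D3:**
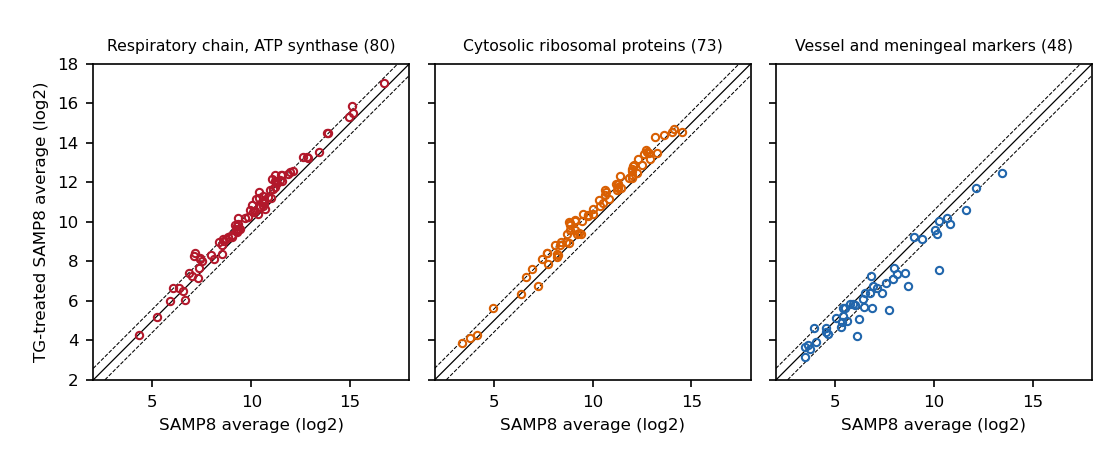
TG-treated SAMP8 average against SAMP8 average (both log2 signal) for 80 probe sets of the respiratory chain and ATP synthase, 73 of cytosolic ribosomal proteins and 48 of vessel and meningeal markers, with the line of equality and dashed lines at 1.5-fold. Most points of the first 2 panels lie above equality, 72 and 70 of them, and 38 of the third lie below it.

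Of the other steps of energy metabolism, glycolysis was higher by a smaller median, and the citric acid cycle and mitochondrial carriers lay near 0. The 22 probe sets of the citric acid cycle had a median of 0.045 and none passed 1.5-fold, with Idh2 at 0.56 and Suclg1 at 0.50 at the top and Idh3b, a subunit of the NAD-linked isocitrate dehydrogenase, at -0.36 at the bottom. Glycolytic enzymes had a median of 0.225 over 16 probe sets, with 2 higher (12.5%) and none lower. The lactate dehydrogenase Ldha stood at 0.76 and Tpi1 at 0.67, both past 1.5-fold, Gapdh at 0.55 (18.68 against 18.13), and the phosphofructokinase Pfkp at -0.40. Mitochondrial carriers of the solute carrier family 25 had a median of -0.02 over 47 probe sets, with none higher and 3 lower. These were Slc25a37, which brings iron into mitochondria, at -0.73, Slc25a42 at -0.64 and the glutamate carrier Slc25a22 at -0.62. The abundant carriers Slc25a3 for phosphate and Slc25a4 for ATP and ADP stood at 0.49 and 0.44.

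Among antioxidant enzymes and Nrf2 targets, 5 of 33 probe sets were higher and 2 lower, and the median was 0.07. Besides Gpx4, the peroxiredoxin Prdx5 stood at 0.73, Gpx7 at 0.70 with a low TG average of 5.47, the mitochondrial superoxide dismutase Sod2 at 0.68 (14.23 against 13.55) and Gstm1 at 0.65. Slc7a11, which imports cystine for glutathione synthesis, stood at -0.66 and the secreted Sod3 at -0.65. Cholesterol synthesis enzymes had a median of -0.095 over 18 probe sets, with Dhcr7, the last step of the pathway, the single member past 1.5-fold at -0.60, and Fdps at 0.37 at the top. Of 47 probe sets for the lysosomal proton pump and cathepsins, 5 were higher and 1 lower. Lamp1, a lysosomal membrane protein, averaged 14.13 against 13.52, and the pump subunit Atp6v1e1 13.09 against 12.46, whereas Ctsc was the lower member at -0.66. Autophagy genes had a median of -0.17 over 36 probe sets. Atg7 at 0.85 and Map1lc3a, which coats the autophagosome, at 0.84 were higher, and Uvrag was lower at -0.70.

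Genes that handle nicotinate and NAD, to which TG is chemically related, differed little as a group. Over 35 probe sets the median was 0.03, with 1 higher and 1 lower (2.86% each), close to the background of 4.48% and 3.74%. The higher one was Parp2, which consumes NAD at DNA breaks, at 0.89 (7.09 against 6.20), and the lower one the mitochondrial sirtuin Sirt4 at -0.62 (5.99 against 6.61). In the salvage pathway, Nampt, its rate-limiting enzyme, stood at 0.34, and the enzymes that complete NAD, Nmnat1, Nmnat2 and Nmnat3, at 0.33, -0.32 and -0.03. The kinases that phosphorylate nicotinamide riboside, Nmrk1 and Nmrk2, stood at -0.31 and 0.16. In the nicotinate branch, Naprt stood at 0.09, Nadsyn1 at 0.16 and the nicotinate receptor Hcar2 at 0.06, all 3 at low averages between 3.69 and 4.44. In the route from tryptophan, the first enzymes Tdo2, Ido1 and Ido2 stood at 0.09, -0.16 and 0.21, Afmid at -0.01, Kmo at -0.32, Kynu at -0.37, Haao at 0.38, Acmsd at 0.43 and Qprt at 0.25. Most of these tryptophan genes were at low averages. Among consumers of NAD, Sarm1, which destroys NAD in injured axons, stood at -0.51, Cd38 at -0.10 and Bst1 at 0.05. The other sirtuins Sirt1, Sirt2, Sirt3, Sirt5 and Sirt6 stood at 0.22, -0.03, 0.17, -0.15 and -0.08. Of the remaining members, the nicotinamide methyltransferase Nnmt stood at -0.27, Aox1 at -0.10, the NAD kinases Nadk and Nadk2 at 0.03 and -0.02, the transhydrogenase Nnt at -0.06, and the transporters Slc12a8 and Slc25a51 at 0.32 and 0.10.

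Synaptic genes gave medians close to or below 0, with single members on both sides. Synaptic vesicle and SNARE genes had a median of 0.01 over 43 probe sets, with 2 higher (4.65%) and 3 lower (6.98%). After Sncb, Vamp1, a vesicle SNARE, averaged 14.04 against 13.43, and the vesicle GTPase Rab3a stood at 0.49. The lower ones were Sv2c, a vesicle glycoprotein, at -0.90 (6.95 against 7.85), Syn3 at -0.73 and the priming factor Unc13b at -0.66. Postsynaptic scaffold and adhesion genes had 25 of 32 probe sets below 0, with a median of -0.09 that turned to 0.045 after centring on the class of signal and length. The calcium-dependent kinase subunit Camk2b averaged 17.36 with TG, 18.50 in SAMP8 and 17.68 in SAMR1, and the neuroligin Nlgn3 11.25, 12.28 and 12.04. Dlg4, which encodes the scaffold PSD-95, stood at -0.56. Camk2a was at the 19.93 ceiling in all 3 groups, so its difference is unknown.

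Receptors for the main fast transmitters stood mostly below 0, by small amounts. Of 46 probe sets for glutamate and GABA receptors, 32 were below 0, with a median of -0.20, 2 higher (4.35%) and 3 lower (6.52%). The metabotropic glutamate receptor Grm2 averaged 11.08 against 10.33 and the delta receptor Grid1 6.80 against 6.20, while the NMDA receptor subunit Grin2b and the AMPA receptor subunit Gria4 both stood at -0.48. GABA receptors had a median of -0.25 over 21 probe sets, with 17 below 0, and -0.15 after centring on the class of signal and length. Their lower members past 1.5-fold were the GABA-A subunits Gabra2 at -0.73 (13.46 against 14.19), Gabra4 at -0.63 and Gabrg1 at -0.62, and the highest was Gabrd at 0.30 from low averages of 5.47 and 5.17. Monoamine and acetylcholine receptors had a median of -0.04 over 49 probe sets, with 2 higher (4.08%) and 3 lower (6.12%). Adra1b at 0.74 and the nicotinic subunit Chrna9 at 0.71 were higher from low averages, 4.98 and 4.72 in SAMP8. The dopamine receptor Drd2 stood at -0.96 from 4.63, also low, and the serotonin receptors Htr1b at -0.73 (8.00 against 8.73) and Htr2a at -0.72 (8.17 against 8.89).

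Ion channels and protocadherins had medians from -0.19 to -0.005. Of 92 potassium channel probe sets, 6 were higher (6.52%, against 4.48% of all) and 5 lower (5.43%, against 3.74%), with a median of -0.005. Kcnn4 at 1.13 rested on low averages of 4.79 and 3.66, and next to it came Kcnab3 and Kcne3 at 0.70. The silent subunit Kcns2 stood at -1.01, Kcnb2 at -0.91 and the channel-interacting protein Kcnip1 at -0.90. Sodium and calcium channels had a median of -0.07 over 40 probe sets, with the sodium channel beta subunit Scn3b at -0.71, the P/Q-type calcium channel Cacna1a at -0.77 and Cacng5 at -0.85. Protocadherins, which give neurons surface identities, had a median of -0.19 over 31 probe sets, with none higher and 4 lower (12.9% against 3.74%), led by Pcdhb14 at -0.80 and Pcdh15 at -0.75. The large class of zinc finger proteins named Zfp had a median of -0.07 over 374 probe sets, with 241 below 0. Of these 374, 4 were higher (1.07% against a background of 4.48%) and 16 lower (4.28% against 3.74%).

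Activity-induced immediate early genes, which neurons switch on within minutes of firing, had 19 of 26 probe sets above 0 and a median of 0.14. Egr4 stood at 0.84 and Npas4 at 0.79, from SAMP8 averages of 4.95, which is low, and 5.86, and Nptx2 at 0.67. At the other end stood the neurotrophin Bdnf at -0.74 (8.42 against 9.16) and all 3 probe sets of Egr3, between -0.53 and -0.28. Circadian clock genes had a median of -0.10 over 23 probe sets, with 17 below 0. The probe sets of Rorb disagreed, at -1.14 and 0.01, the second being the brighter. Clock stood at -0.40 and Per1, which is also induced by glucocorticoids, at -0.38. Of 18 glucocorticoid-induced genes 1 was higher, the metallothionein Mt1 at 0.64 (13.37 against 12.73), and 2 were lower, the growth factor feedback inhibitor Errfi1 at -1.11 and the mineralocorticoid receptor Nr3c2 at -0.96.

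Immune genes lay close to the array as a whole and mostly at low signal. Over chemokines, interleukins, the TNF superfamilies, interferon-induced genes, complement and MHC genes together, 275 probe sets had a median of 0.02 and a median level of 4.715, with 11 higher (4.00%) and 4 lower (1.45%). The sensory receptors, at a median level of 4.09, gave 5.62% higher and 2.46% lower. Chemokines and their receptors had 4 of 61 probe sets higher (6.56%) and none lower. Ccl11 stood at 0.77, the dimmest Ccl19 probe set at 0.72 and Ccl26 at 0.66, all from SAMP8 averages of 5.04 or less. The brightest Ccl19 probe set stood at 0.09 (8.62 against 8.53, with 5.69 in SAMR1) and the others of this repeated gene between -0.03 and 0.41. Interleukins and their receptors had a median of 0.00 over 77 probe sets, with Il22 at 0.87 and Il2ra at 0.82 from low averages and the interleukin 1 receptor Il1r1 at -0.59 (7.36 against 7.95). In the TNF superfamilies, Edar was followed by Tnfrsf23 at 0.76 and the death receptor Fas at 0.65.

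The NF-kB pathway relays signals from interleukin 1 and TNF receptors to inflammatory genes. Its median was -0.11 over 34 probe sets, with 1 higher (2.94%) and 3 lower (8.82%). Ikbkb, the kinase that releases NF-kB, averaged 6.22 with TG, 7.28 in SAMP8 and 6.67 in SAMR1, and the ubiquitin ligase Traf6 7.16, 7.85 and 7.28. Tab3, an adaptor that joins Traf6 to its kinase, stood at -0.59, and Ikbke was the higher member at 0.74 from low averages. Of 35 interferon-induced genes none was higher and Ifih1, a sensor of double-stranded RNA, was lower at -0.99 (4.83, which is low, against 5.82). Complement genes had a median of 0.00 over 33 probe sets, with C1qa at 0.67 (5.08 against 4.41, both low). None of the 28 MHC probe sets passed 1.5-fold. Collagens had 2 of 43 probe sets lower (4.65%) and none higher, Col11a1 at -0.67 and Col25a1 at -0.60.

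The tissue was first checked by its markers. All 14 pan-neuronal probe sets were above the level of the sensory receptors in both groups, as were 6 of 7 markers of CA1, 6 of 7 of CA2, 6 of 7 of CA3 and 8 of 10 of the dentate gyrus. Markers of neighbouring regions passed the same level too, 10 of 12 for neocortex and subiculum and 10 of 17 for thalamus and habenula, so this check does not set hippocampus apart from them. Pan-neuronal genes had a median of 0.17, with none of 14 past 1.5-fold. The neuronal nuclear gene Rbfox3 stood at 0.21, the SNARE gene Snap25 at -0.17 and the calcium sensor Syt1 at 0.00, at 19.70 in all groups and so close to the ceiling. The highest member was Thy1 at 0.48.

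Markers of the hippocampal fields were uneven within each list. In CA1, Wfs1 stood at -0.48, Fibcd1 at 0.05 and Pou3f1 at 0.00, with Man1a lower at -0.74. In CA2, Rgs14 stood at -0.43, Amigo2 at 0.25 and Map3k15 at -0.31. In CA3, Grik4 stood at 0.01, Bok at -0.26 and Iyd at -0.65, and Cpne4 averaged 10.30 against 11.35. The dentate list had a median of -0.19. Its defining transcription factor Prox1 averaged 11 with TG, 11.85 in SAMP8 and 11.26 in SAMR1, Npnt was lower by 0.88 on the log2 scale, and Dsp and C1ql2 stood at -0.28 and 0.11. The summed linear signal with TG over that in SAMP8 was 0.903 for the CA1 list, 1.181 for CA2, 0.656 for CA3 and 0.692 for the dentate list. These sums rest on few bright genes. In CA2 most of the signal came from Pcp4 alone (11.86 against 11.48). Most of the gap came from Cpne4 in CA3, and from Prox1 and C1ql3 (11.88 against 12.27) in the dentate list.

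Interneuron markers had a median of 0.04 over 14 probe sets, with 3 higher and 1 lower, and are grouped here by function after their values were seen. The peptides and the calcium-binding protein of parvalbumin cells had higher averages, Pvalb at 0.83 (7.65 against 6.82), Vip at 0.74 (9.43 against 8.69), Sst at 0.69 (12.00 against 11.31), Cck at 0.54, Cort at 0.45 and Npy at 0.38, whereas calretinin, Calb2, stood at -0.31. The genes that make and load GABA had lower averages, Gad2 at -0.43, Gad1 at -0.35 and Slc32a1 at -0.20, as had the nitric oxide synthase Nos1 at -1.11 (8.49 against 9.60). Erbb4 stood at -0.28, Reln at 0.00 and Lhx6 at 0.08. Over the list the shorter genes had a median of 0.54 and the longer ones -0.31, split at 19666 base pairs, and the part of length in this was not tested. Of the markers of newborn neurons and dividing progenitors, 2 of 9 were above the level of the sensory receptors. Dcx stood at 0.03, Sox11 at -0.17 and Eomes at -0.21.

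Among glia, oligodendrocyte genes were the higher ones. Markers of mature oligodendrocytes had a median of 0.395, with 12 of 14 above 0, 3 higher and none lower. The myelin basic protein gene Mbp averaged 18.24 with TG, 17.77 in SAMP8 and 18.13 in SAMR1, Mal 14.20, 13.39 and 13.91, and Mag and Cldn11 both stood at 0.71. Mog, a protein of the outer myelin surface, stood at 0.15 (6.60 against 6.45). Markers of oligodendrocyte precursors had a median of 0.36 over 8 probe sets. Sox10 was highest at 0.69 and Olig2 stood at 0.45, whereas Cspg4 and Gpr17 stood at -0.14 and -0.28. Astrocyte markers had a median of -0.03 and none of 14 passed 1.5-fold, with S100b at 0.58, Gfap at -0.11, Aqp4 at 0.05, Aldh1l1 at -0.03 and Gjb6 at -0.55. Microglial markers had a median of 0.18 over 17 probe sets. Over the 12 above the level of the sensory receptors in either group the median was -0.115, but only 10 were above it in both. C1qb (5.49 against 5.88) and Tmem119 (5.53 against 5.56) passed in SAMP8 alone, where they were higher, so the change of sign is not read. P2ry12 stood at -0.43 (11.60 against 12.03), Cx3cr1 at -0.31, P2ry13 at 0.37, Csf1r at 0.30 and Aif1 at -0.44, and C1qa was the 1 member past 1.5-fold.

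Genes of vessels and meninges were lower. Of 48 probe sets of endothelium, smooth muscle and pericytes, and meningeal fibroblasts, 38 were below 0, and 18 (37.5%, against 3.74% of all probe sets) were at least 1.5-fold lower and 1 higher. Meningeal fibroblast markers had a median of -0.645, with 11 of 20 lower and none higher. Besides Ptgds and Igf2, the matrix proteoglycan Fmod averaged 4.21 with TG, 6.09 in SAMP8 and 4.66 in SAMR1, Mgp stood at -1.21, Ogn at -1.10 and the organic anion transporter Slc22a8 at -0.75. The defining markers were not of 1 direction. Dcn averaged 9.38 with TG, 10.15 in SAMP8 and 10.66 in SAMR1, Lum was higher at 0.46, and the collagen gene Col1a1 stood at 0.13, with Col1a2 at 0.17 and Col3a1 at -0.18. The list's summed linear signal was 2934 with TG, 5598 in SAMP8 and 4499 in SAMR1, and 12 of its 20 probe sets were above the level of the sensory receptors in both SAMP8 groups.

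Endothelial markers had 13 of 14 probe sets below 0, a median of -0.395 and 4 lower. These were the transporter Slco1a4 at -1, the tight junction gene Ocln at -1, the glucose transporter Slc2a1 at -0.96 and the efflux pump Abcb1a at -0.92. Slc2a1 averaged 12.49 with TG, 13.45 in SAMP8 and 12.34 in SAMR1, and Abcb1a 9.90, 10.82 and 6.5. Another tight junction gene, Cldn5, and another transporter, Slco1c1, stood at -0.14 and -0.49. The cell surface genes Pecam1 and Cdh5 stood at -0.35 and -0.50. The summed linear signal of the endothelial list was 0.567 of that in SAMP8, and most of the gap came from Slc2a1, Slco1a4 and Abcb1a. In smooth muscle and pericytes, 5 of 14 probe sets were above the level of the sensory receptors in both SAMP8 groups. After Acta2, whose TG average of 5.54 is low, Mylk stood at -1.14 (5.06, which is low, against 6.2) and Myh11 at -0.76. Tagln, another smooth muscle gene, was higher at 0.71 (4.62 against 3.91, both low). The pericyte gene Pdgfrb stood at -0.33 and Rgs5 at -0.17.

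**Figure D4:**
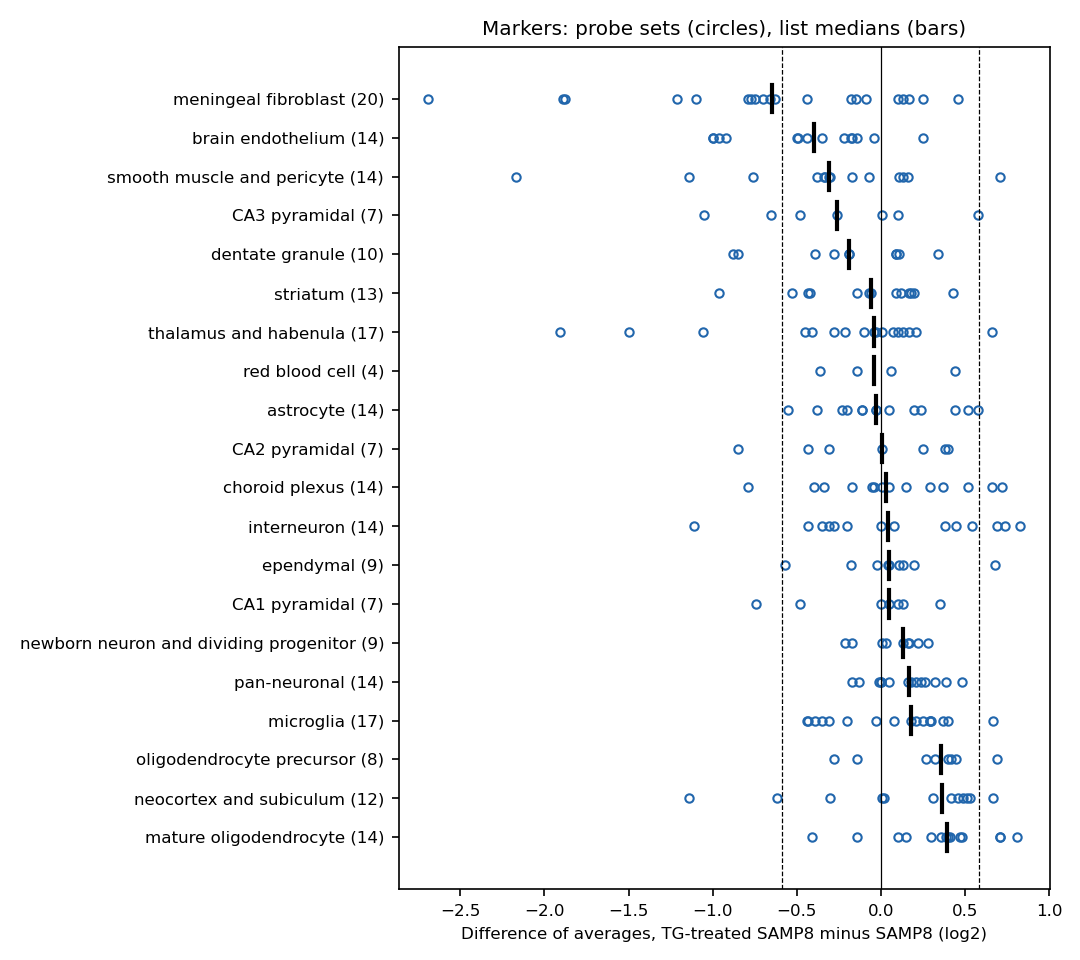
Difference of averages (log2, TG-treated SAMP8 minus SAMP8) for each probe set (circle) of 20 marker lists, with the list median (bar), dashed lines at 1.5-fold and the number of probe sets in brackets. Meningeal fibroblast, endothelial and smooth muscle lists have the lowest medians, -0.645, -0.395 and -0.305, and the mature oligodendrocyte list the highest, 0.395.

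Markers of tissue next to the hippocampus were examined because a dissection can include some of it. In the thalamus and habenula list, 3 of 17 were lower and 1 higher, with a median of -0.04. The 3 lower ones, Zic1, Prkcd and Plekhg1 (-1.06), were among the brighter members, whereas Tcf7l2, which defines thalamic neurons, stood at -0.04 (8.44 against 8.48), Slc17a6 at 0.07, Lef1 at 0.10 and Tnnt1 at 0.66. The brightest member, Ntng1, stood at -0.41 (10.52 against 10.93) and Slitrk6 at -0.45, and of all 17 probe sets 10 were below 0 and 7 above. The summed linear signal of the list was 4495 with TG, 8635 in SAMP8 and 6958 in SAMR1. Most of the gap between the SAMP8 groups came from Zic1 and Prkcd. Choroid plexus markers had a median of 0.03. Transthyretin, Ttr, was higher at 0.72 (10.05 with TG, 9.33 in SAMP8, 8.45 in SAMR1), as was Sostdc1 at 0.66, and the klotho gene Kl was lower at -0.79 (6.05 against 6.84), with Folr1 at -0.40. The other choroid plexus markers were at averages under 7.

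Neocortex and subiculum markers had a median of 0.365 over 12 probe sets. Tshz2 was higher at 0.67 (10.56 against 9.89), Lamp5 stood at 0.53 and Tbr1 at 0.31, while 2 were lower, Ctgf at -0.62 and the dimmer Rorb probe set at -1.14 (7.13 against 8.27), and Cux2 stood at -0.30. The brighter Rorb probe set stood at 0.01. Striatal markers had a median of -0.06 over 13, with Drd2 the single one past 1.5-fold and Drd1 and Adora2a at 0.20 and -0.07. Ependymal markers had a median of 0.05 over 9, with Tmem212 higher at 0.68 and Ccdc153 at 0.20, and the 4 red blood cell probe sets lay between -0.36 and 0.44. The part of dissection in the vessel, meningeal and thalamic values was not tested.

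The difference with TG also moved with the length of the gene. Among placed probe sets at or above the median signal, divided into 10 classes of genomic length, the shortest class (median 2773.5 base pairs) had a median difference of 0.19, with 15.4% higher and 2.87% lower. The longest class (median 272379 base pairs) had a median of -0.17, with 1.05% higher and 11.5% lower. Over the same classes, the median of SAMP8 minus SAMR1 stayed between 0.03 and 0.14. Its share at least 1.5-fold lower went from 8.7% in the shortest class to 1.91% in the longest. Over 10 length classes of all placed probe sets, its median rose from -0.11 to 0.09, while the TG difference fell from 0.10 to -0.13. Both differences share the 3 SAMP8 arrays, and the part of this in the length trend was not tested. At or above the median signal, the shortest class without the ribosomal, respiratory and histone lists still held 915 probe sets. Their median difference with TG was 0.15, with 12.2% higher.

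**Figure D5:**
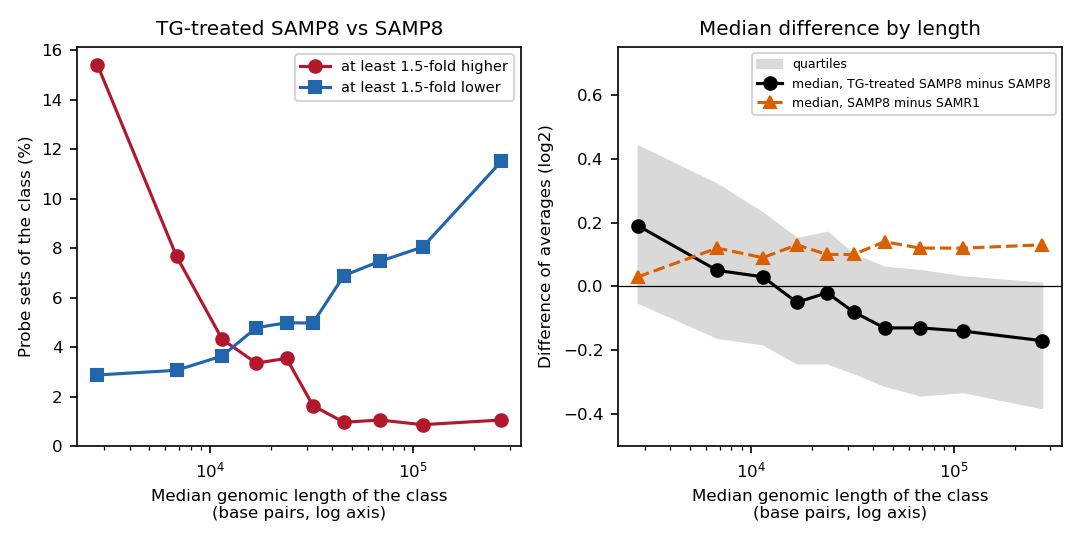
Left, percent of probe sets at least 1.5-fold higher or lower with TG in 10 classes of genomic length (log axis, base pairs), for probe sets at or above the median signal. Right, the median difference of each class with quartiles (TG-treated SAMP8 minus SAMP8) and the median of SAMP8 minus SAMR1. The share higher goes from 15.4% in the shortest class to 1.05% in the longest, and the share lower from 2.87% to 11.5%.

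Several of the gene classes above are short or long as a whole, so their values are set beside those of their length class. In the shortest class, 53 probe sets of cytosolic ribosomal proteins had a median of 0.61 and 41 of histones 0.38, against 0.19 for the class, while 16 of mitochondrial ribosomal proteins had 0.13 and 13 of protocadherins -0.04. In the next class, with a median of 0.05, 15 probe sets of complex I had a median of 0.41, 14 of cytosolic ribosomal proteins 0.43 and 20 of mitochondrial ribosomal proteins 0.295. In the longest class, 16 glutamate receptors had a median of -0.23, 13 postsynaptic genes -0.14 and 18 potassium channels -0.28, against -0.17 for the class, and 10 synaptic vesicle genes -0.47. Ptgds, of 3402 base pairs, and Zic1, of 7711, are short genes that were lower. The part of gene length in the values of each list was not tested further.

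Signal level had a smaller bearing. In 10 classes of mean signal, the median difference was between 0.02 and 0.07 in the 5 dimmest and between -0.07 and 0.00 in the 5 brightest. The share at least 1.5-fold higher was largest, 6.85%, at a median level of 5.635, and the share lower largest, 6.67%, at 8.77. Where 1 gene had more than 1 probe set, their values show how far a single probe set fixes a difference. Of 132 such genes, 43 had probe sets on both sides of 0, and in the 100 genes with 2 probe sets the median gap between them was 0.22.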

How the data were processed

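Hippocampal RNA was hybridized to Clariom S Mouse arrays, and the authors summarized and normalized intensities by SST-RMA in the Transcriptome Analysis Console. The 2 deposited tables (TG-treated SAMP8 against SAMP8, and SAMP8 against SAMR1) hold, per the file headers, group averages as log2 signal. How the authors formed the averages is not given in the sources used here. The tables also hold the authors' fold changes, p-values and false discovery rate adjusted p-values, which were not used, so neither adjusted nor unadjusted evidence is given. With 3 arrays in each group, the precision of every average is limited, and there were 0 columns of values per array.

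The difference was the TG-treated SAMP8 average minus the SAMP8 average for each of 22206 probe sets (21367 with 1 symbol, 836 with several, 3 with none), and a difference was counted from 1.5-fold (0.585 on the log2 scale). SAMP8 averages were identical in both tables. Lists (41 gene classes, 20 marker lists) used probe sets with 1 symbol and were described by medians and counts, with no test. Genomic length and position came from RefSeq annotation of GRCm38.p6, the build of the array annotation (mm10), and 20755 probe sets (93.5%) were placed. The members and lists were chosen with earlier results of these data known.

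Genes named were the 15 highest and 15 lowest among 9811 eligible probe sets (1 established symbol, no sensory receptor, mean of both averages of at least 6.06), members from the 3 highest and 3 lowest of each list, all of the nicotinate and NAD list, and the first 3 genes of each marker list where measured. A gene with several probe sets was given by the brightest, and others where they lay across 0. Other list members named with values were chosen after their values were seen. The counting steps were tested on simulated data. Python 3.11.15, numpy 2.4.6, pandas 2.3.3 and matplotlib 3.10.9 were used. Alternatives were other fold limits, centrings and filters. Some genes chosen by the rule are not reported here. Protein, behavioral and per-array data were not analysed here.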

Additional observations from a re-analysis of the deposited data

How the results depend on the processing

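No paired analysis was possible because the columns are group averages that carry no replicate number, and for the same reason leaving out each replicate could not be run. The counts of 994 higher and 830 lower became 4361 and 4116 at a fold limit of 1.2 and 105 and 76 at 2. Without probe sets at the level of the sensory receptors, a filter that kept those above it in either SAMP8 group, 660 were higher. Centring on the class of signal and length, chosen for these 2 counts after seeing the data, left 747 and 703. For list medians, the same centring gave 0.33 for complexes II to IV, 0.3375 for ATP synthase, 0.41 for cytosolic ribosomal proteins, 0.225 for histones, 0.045 for postsynaptic genes, 0.2425 for neocortex and subiculum, and 0.13 for red blood cells, where 3 of 4 probe sets had a length and the check is void. Without probe sets at the level of the sensory receptors, the medians were -0.11 for potassium channels, 0.19 for the TNF superfamilies, 0.13 for CA2, -0.37 for CA3, -0.115 for microglia and -0.225 for thalamus and habenula. Under this filter a member can pass only through the group where it is higher. In the TNF superfamilies 17 passed with TG and 14 in both groups, and for potassium channels 64 and 63. Of the microglial markers 12 passed in SAMP8 and 10 in both. The medians of these lists after the filter are therefore not read. For newborn neurons and progenitors (-0.07) and ependymal cells (0.365) 2 probe sets each were left, too few for a median to be read. Without the 25% of lowest signal, the medians were 0.01 over 5 probe sets for newborn neurons and progenitors and 0.20 over 3 for ependymal cells. With probe sets of several symbols, the red blood cell median was -0.245. The cause of these shifts was not tested. Other list medians moved by at most 0.1 under these alternatives, centring on the overall median or the signal class, and 1 probe set per symbol.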

Other observations

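Probe sets of chromosome Y stood apart from the rest of the array. Of 219 such probe sets, 144 with predicted names, 82 (37.4%) were at least 1.5-fold higher with TG and 2 lower, and the median difference was 0.43. Their median average was 6.34 with TG, 5.69 in SAMP8 and 6.81 in SAMR1. The 4 conserved single-copy genes of the male cell lay the other way, Uty at -0.87, Kdm5d at -0.73, Ddx3y at -0.21 and Eif2s3y at -0.16. The remaining probe sets are mostly of families repeated many times on this chromosome, so they can read the same transcripts and do not count as separate observations.

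Of 9 probe sets of the mitochondrial genome, 5 were at the 19.93 ceiling in all 3 groups and say nothing of a difference. Below the ceiling, ND6 averaged 18.24 with TG, 17.79 in SAMP8 and 18.62 in SAMR1, ND2 18.40, 17.97 and 18.31, and ND3 19.62, 19.27 and 19.67, while COX2 differed by 0.03.

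Keratins and keratin-associated proteins, genes of skin and hair, had a median difference of 0.11 over 95 probe sets at a median level of 4.22, with 7 higher (7.37%) and none lower.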
